A study of Mus musculus with 8 samples.

Results

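The interferon-stimulated genes described here are 35 mouse genes chosen by name for their known response to interferon, out of 27453 genes listed in the files. They are 11 GTPases typical of the interferon-gamma response, 2 chemokines, 12 effectors typical of the type I response, 4 transcription factors and 6 other interferon-induced genes. Their counts are sums over 62 listed transcripts, 61 of which had at least 1 read, and 22163 reads in all fell on them. The libraries were made by nanopore direct RNA sequencing, which reads each native polyadenylated RNA molecule through a pore without copying it, and the tissue was liver of the inbred mouse strain C57BL/6JN, with no other genotype or treatment recorded. There were 4 libraries with titles beginning with O (O1 to O4) and 4 with titles beginning with Y (Y1 to Y4), and in each set replicates 1 and 2 were males and 3 and 4 were females. The series contrasts young mice of about 2 months with old mice of about 18 months, but the recorded age is 12 weeks in every O-titled animal and 80 weeks in every Y-titled animal, while a protocol field of all 8 speaks of old mice as the treated ones. Which set is the older one is therefore not settled, and groups are named by their titles.

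Interferons are cytokines that warn cells of infection. Type I interferons act through a transcription factor complex that holds Stat2 and Irf9, on the interferon-stimulated response element (ISRE), whereas interferon-gamma, made mainly by T cells and natural killer cells, acts on the gamma-activated site (GAS) and through the induced factor Irf1. In the liver, hepatocytes, Kupffer cells (the resident macrophages) and sinusoidal endothelial cells all respond, and many targets answer to both kinds of interferon.

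The promoters of 7 members are shown because they carry, or lack, the letters of these elements. Gbp3, Irgm2, Irf1, Cxcl9, Apol9a and Apol9b were called in a comparison of the main fit. Isg15, a type I target, was called only in alternative runs, such as the fit without a count filter. Each is the RefSeq sequence on GRCm38.p6 (mm10), read along the gene's strand from 250 bases before to 50 bases after the annotated transcript start, with motif letters in capitals. The ISRE core searched was GAAA-NN-GAAA (N is any base) on both strands with overlapping matches counted, and the GAS core was TTC-NNN-GAA, which reads alike on both strands. Gbp3 (chr3:142559794-142560093, plus strand), Apol9a (chr15:77410985-77411284, minus strand) and Apol9b (chr15:77728871-77729170, plus strand) each hold 2 ISRE cores on the opposite strand that share 4 bases. Isg15 (chr4:156200769-156201068, minus strand) holds 3 cores on its own strand, each sharing 4 bases with the next, Irgm2 (chr11:58214727-58215026, plus strand) a GAS core followed by an ISRE core, and Irf1 (chr11:53769764-53770063, plus strand) a GAS core. Cxcl9 (chr5:92328030-92328329, minus strand) has neither set of letters in this window. Gbp3 and Irf1 each have a second annotated start (windows chr3:142560106-142560405 and chr11:53770223-53770522), not shown, with 0 cores of either kind.
Gbp3: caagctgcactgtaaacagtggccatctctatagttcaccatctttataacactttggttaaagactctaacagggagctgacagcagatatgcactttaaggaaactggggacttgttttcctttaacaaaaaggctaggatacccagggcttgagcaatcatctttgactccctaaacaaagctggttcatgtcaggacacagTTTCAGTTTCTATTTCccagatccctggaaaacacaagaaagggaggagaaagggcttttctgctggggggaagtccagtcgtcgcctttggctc
Irgm2: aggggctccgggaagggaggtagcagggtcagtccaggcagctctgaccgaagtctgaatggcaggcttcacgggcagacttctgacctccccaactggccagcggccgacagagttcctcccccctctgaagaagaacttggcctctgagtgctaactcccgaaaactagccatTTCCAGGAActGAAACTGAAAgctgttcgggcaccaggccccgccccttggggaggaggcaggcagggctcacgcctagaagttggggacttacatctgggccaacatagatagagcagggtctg
Irf1: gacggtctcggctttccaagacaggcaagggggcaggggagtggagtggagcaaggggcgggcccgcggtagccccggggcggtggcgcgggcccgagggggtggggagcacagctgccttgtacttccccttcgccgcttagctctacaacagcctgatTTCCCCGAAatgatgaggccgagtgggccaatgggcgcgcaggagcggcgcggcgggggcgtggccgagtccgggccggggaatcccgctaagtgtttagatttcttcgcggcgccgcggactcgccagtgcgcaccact
Cxcl9: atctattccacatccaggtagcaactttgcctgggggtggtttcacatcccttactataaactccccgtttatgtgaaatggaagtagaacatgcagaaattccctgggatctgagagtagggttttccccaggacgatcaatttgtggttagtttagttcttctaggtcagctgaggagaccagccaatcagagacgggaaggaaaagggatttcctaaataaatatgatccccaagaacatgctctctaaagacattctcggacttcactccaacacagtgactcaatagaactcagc
Isg15: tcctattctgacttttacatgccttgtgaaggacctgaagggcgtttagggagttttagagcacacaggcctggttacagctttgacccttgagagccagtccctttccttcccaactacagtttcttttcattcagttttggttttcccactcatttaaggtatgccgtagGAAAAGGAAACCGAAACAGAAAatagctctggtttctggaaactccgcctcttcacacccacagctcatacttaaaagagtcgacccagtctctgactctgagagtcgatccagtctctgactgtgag
Apol9a: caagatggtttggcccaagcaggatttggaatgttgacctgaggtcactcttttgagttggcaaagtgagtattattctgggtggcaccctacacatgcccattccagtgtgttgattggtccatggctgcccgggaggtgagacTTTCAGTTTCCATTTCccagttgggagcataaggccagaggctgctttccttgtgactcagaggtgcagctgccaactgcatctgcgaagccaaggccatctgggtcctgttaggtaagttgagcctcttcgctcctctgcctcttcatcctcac
Apol9b: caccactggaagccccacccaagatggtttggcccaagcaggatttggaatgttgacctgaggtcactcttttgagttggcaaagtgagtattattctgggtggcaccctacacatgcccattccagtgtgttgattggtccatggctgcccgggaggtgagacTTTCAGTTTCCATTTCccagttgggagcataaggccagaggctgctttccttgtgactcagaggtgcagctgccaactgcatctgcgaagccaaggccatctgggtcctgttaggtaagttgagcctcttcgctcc
The windows of Apol9a and Apol9b shown here share a run of 281 identical bases. Of the 35 members, 27 were matched to the RefSeq promoter table, with 33 windows between them, and Gbp4, Gbp6, Ifi27, Ifi27l2a, Iigp1, Parp14, Usp18 and Zbp1 were not matched. An ISRE core was present in 18 of these 27 genes (66.7%), whereas it was present in 3.99% of all 27025 genes in the table and 3.44% of its 32851 windows. A GAS core was present in 10 of the 27 (37.0%), against 9.55% of all genes and 8.30% of all windows. Both were found in 7 members (Gbp7, Igtp, Irgm2, Tgtp1, Bst2, Ifitm3 and Oas1a) and neither in 6 (Cxcl9, Ifi44, Ifi47, Irf7, Irf9 and Oasl2). In Gbp3 the cores lay from -45 to -36 and from -39 to -30, counting the start base as 0, and in Apol9a from -105 to -96 and from -99 to -90. These matches describe the letters of the windows and were not tested for binding.

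**Figure D1:**
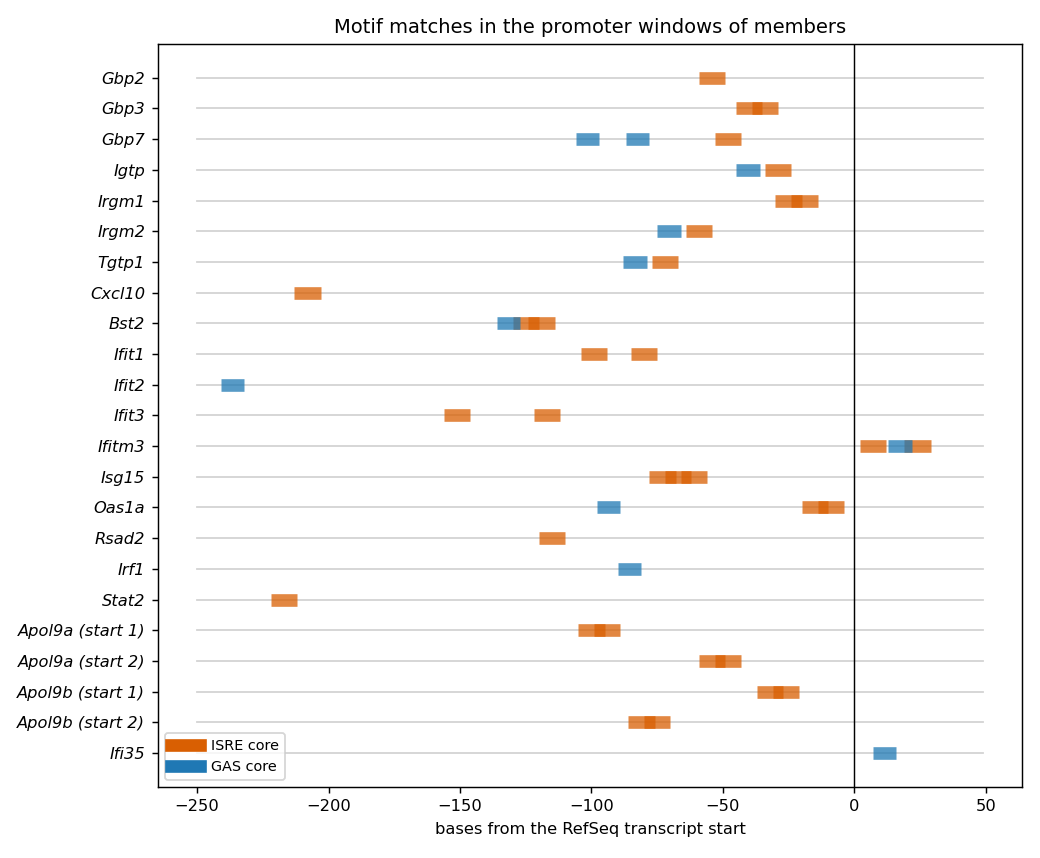
Positions of motif letters in the promoter windows of members with at least 1 match. The x axis is the distance in bases from the RefSeq transcript start, grey lines are the windows, orange bars are ISRE cores and blue bars are GAS cores. Members with several annotated starts have a line only for each start whose window has a match. The second starts of Gbp3, Irf1 and Ifit2, without a match, are not drawn. Most orange bars lie within about 100 bases of the start, and in Igtp, Irgm2 and Tgtp1 a GAS core lies just before an ISRE core.

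Mapped reads ranged from 545171 in Y2 and 792004 in O2, both males, to 2593200 in O1, so that 3 reads corresponded to between 1.15 CPM (reads relative to all reads in tested genes, after scaling) and 5.94 CPM. Mean read length was between 1156 and 1235 bases. Markers of hepatocytes summed to between 71754 and 118708 CPM in every library, as the liver label says. Summed Kupffer cell and macrophage markers (12 genes, none at 0 in all libraries) were 1506, 575, 1550 and 1166 CPM in O1 to O4 and 763, 685, 804 and 819.5 CPM in Y1 to Y4. Summed T cell and natural killer cell markers (14 genes, none at 0 in all libraries) were 18.8, 6.72, 41.7 and 21.7 CPM in O1 to O4 and 8.81, 11.9, 12.9 and 17.1 CPM in Y1 to Y4, and Cd3d, Cd3e and Cd3g had 0 reads in O2. B cell and plasma cell markers (7 genes) summed to between 169 and 252 CPM in the O-titled and between 157 and 247 CPM in the Y-titled libraries and overlapped, and most of this sum was Xbp1, which other secretory cells also make. Xbp1 was set aside after its values were seen, and the other 6 markers summed to between 18.2 and 39.1 CPM in the O-titled and between 6.28 and 8.27 CPM in the Y-titled libraries. In bulk tissue, fewer cells of a type and less RNA per cell cannot be told apart.

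Reads were spread unevenly over the members. Among the type I effectors, Ifitm3, which blocks virus entry, had 8684 reads over the 8 libraries and Bst2, which tethers budding virus, had 2921. Among the GTPases, Iigp1, an effector that attacks pathogen vacuoles, had 2364, and among the other interferon-induced genes Ifi27 had 1509 and Apol9b 961. Every other member had 510 reads or fewer. A minimum count of 10 left 26 members to be tested among 6759 genes. The 9 that did not pass had between 34 and 87 reads in all: Gbp4 34, Gbp6 70, Cxcl10 54, Ifit1 87, Ifit2 35, Oas1a 72, Oasl2 60, Rsad2 47 and Ifi44 47. Since a member can pass through the group in which it is high, counts over the 26 are given beside counts from a fit of all 15751 genes with a read, which holds all 35.

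Between O-titled and Y-titled livers, 1 member was higher and 1 was lower. Ifi27, a small membrane protein of the interferon response, rose in the O-titled livers, and Iigp1 fell. EdgeR's quasi-likelihood test, with a threshold of 0.05 on the adjusted p, called 2 of 26 tested members and 4.01% of all 6759 tested genes (2.09% as higher and 1.92% as lower). All 35 members in the unfiltered fit gave the same 2 calls, against 3.81% of 15751 genes (2.11% higher and 1.70% lower). Fold changes were above 0 for 12 of the 26 and below 0 for 14, with a median log2 fold change of -0.08 beside -0.00 over all tested genes. A share this close to the background is not a result about the members as a group.

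Ifi27 had 140.3 and 169 CPM in the O-titled males and 223 and 191 CPM in the O-titled females, against 86.2 and 135 CPM in the Y-titled males and 119 and 138 CPM in the Y-titled females. All 4 O-titled libraries lay above all 4 Y-titled ones, which held for 1 of the 26 tested members and for 4.1% of all tested genes. The reverse order held for 0 of the 26 and for 4.62% of all tested genes. The means were 181 ± 35.0 CPM in O-titled livers and 119 ± 23.7 CPM in Y-titled livers (SD, n = 4 each), with a log2 fold change of 0.61 ± 0.14 (SE, edgeR adjusted p = 0.0181). The call was lost without any 1 of O3, Y1, Y3 or Y4 (adjusted p between 0.0515 and 0.0895). Its relative Ifi27l2a stood at 47.0 ± 22.0 CPM in O-titled livers and 32.1 ± 8.98 CPM in Y-titled livers and was not called (log2 fold change 0.47, edgeR adjusted p = 0.208).

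Iigp1 had 186 and 138 CPM in the O-titled males and 181 and 242 CPM in the O-titled females, against 269 and 214 CPM in the Y-titled males and 305 and 319.5 CPM in the Y-titled females. The groups overlapped through O4, which at 242 CPM lay above Y2, but within each sex every O-titled library was below every Y-titled one. The means were 187 ± 42.3 CPM in O-titled livers and 277 ± 47.1 CPM in Y-titled livers (SD, n = 4 each), with a log2 fold change of -0.56 ± 0.13 (SE, edgeR adjusted p = 0.0174). It lost the call without any 1 of O2, O3, Y1 or Y4 (adjusted p between 0.0622 and 0.0907). The log2 fold changes within males (-0.57 ± 0.18) and within females (-0.56 ± 0.18) were nearly equal, and neither was called on its own (edgeR adjusted p = 0.184 in males and 0.0739 in females). Summed Kupffer cell markers stood at 1199 ± 450.1 CPM in O-titled livers and 768 ± 60.2 CPM in Y-titled livers (SD, n = 4 each). Of the 11 tested, edgeR called 0, DESeq2 1 and limma voom 0. At an unadjusted p under 0.05 there were 5, against 16.2% of all tested genes. The unfiltered edgeR fit called 5 of 12 as higher in O-titled livers and 0 as lower, against 2.11% and 1.70% of all genes. Stellate cell markers (7 genes) summed to 256 ± 23.9 CPM in O-titled livers and 190.3 ± 21.8 CPM in Y-titled livers (SD, n = 4 each) and did not overlap, with between 228 and 286 CPM against between 162 and 213 CPM. EdgeR, DESeq2 and limma voom each called 1 of the 5 tested, Dcn by edgeR (log2 fold change 0.58 ± 0.12, edgeR adjusted p = 0.00956), and 4 had an unadjusted p under 0.05. Of 6 tested sinusoidal endothelial markers edgeR called 1, Fcgr2b (0.62 ± 0.17 on the log2 scale, edgeR adjusted p = 0.049), and DESeq2 and limma voom 0. The part of cell composition in the Ifi27 and Iigp1 results was not tested.

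The remaining tested GTPases did not pass the test between the titles. Their log2 fold changes ran between -0.55 ± 0.39 for Tgtp1, an effector GTPase, and 0.12 ± 0.30 for Gbp2, a guanylate-binding protein. The untested Gbp4 and Gbp6 had log2 fold changes of -0.48 and -1.03 in the unfiltered fit and were not called there (edgeR adjusted p = 0.819 and 0.165). With the reads of Gbp10 added, whose transcript is 97.6% identical, Gbp6 was called as lower in O-titled livers (log2 fold change -1.08, edgeR adjusted p = 0.0417). Among the type I effectors, edgeR called 0 of the 6 tested, with 1 at an unadjusted p under 0.05 and 0 called by DESeq2 or limma voom. That one was Isg15, the ubiquitin-like modifier, with 15.8, 13.4, 20.8 and 32.2 CPM in O1 to O4, against 22.0, 31.7, 24.8 and 56.5 CPM in Y1 to Y4. Within each sex its O-titled values were the lower ones except that O4 lay above Y3, and the log2 fold change was -0.65 ± 0.26 (edgeR adjusted p = 0.201). Usp18, the protease that removes Isg15 from proteins and damps type I receptor signalling, had 4.61, 2.69, 17.4 and 11.9 CPM in O1 to O4, against 13.8, 9.90, 9.19 and 21.5 CPM in Y1 to Y4. The 2 O-titled males were the lowest Usp18 libraries, and the values of the other 6 overlapped between the titles. The fold change over all animals was -0.66 ± 0.36 on the log2 scale (edgeR adjusted p = 0.405). Ifitm3 had 780.3 and 767 CPM in the O-titled males and 891 and 991 CPM in the O-titled females, against 821 and 788 CPM in the Y-titled males and 841 and 919 CPM in the Y-titled females. Its titles overlapped, with a log2 fold change of 0.02 ± 0.10 (edgeR adjusted p = 0.966).

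Of the transcription factors, 0 of 4 were called between the titles by edgeR, DESeq2 or limma voom, and 0 had an unadjusted p under 0.05. Their log2 fold changes lay between -0.21 ± 0.29 for Stat2, the type I signal transducer, and 0.26 ± 0.19 for Irf1. Stat2 had 20.8 and 5.37 CPM in the O-titled males and 19.1 and 22.4 CPM in the O-titled females, against 18.3 and 21.8 CPM in the Y-titled males and 15.6 and 31.4 CPM in the Y-titled females, so that O2 was the lowest library and Y4 the highest and the titles overlapped.

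Parp14, which attaches ADP-ribose to proteins, had the lowest fold change of the other interferon-induced genes (-0.22 ± 0.28), and Apol9a, an apolipoprotein L, the highest (0.72 ± 0.43, edgeR adjusted p = 0.505). Parp14 had 9.99 and 5.37 CPM in the O-titled males and 19.1 and 14.0 CPM in the O-titled females, against 12.6 and 15.8 CPM in the Y-titled males and 12.9 and 18.0 CPM in the Y-titled females, and the titles overlapped (edgeR adjusted p = 0.769). Cxcl9 and Cxcl10, chemokines that draw activated T cells, stood at 20.8 ± 12.1 CPM and 5.40 ± 3.79 CPM in O-titled livers and at 19.8 ± 7.92 CPM and 4.77 ± 2.18 CPM in Y-titled livers (SD, n = 4 each). Neither was called (edgeR adjusted p = 0.835 for Cxcl9, and 0.963 for Cxcl10 in the unfiltered fit).

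**Figure D2:**
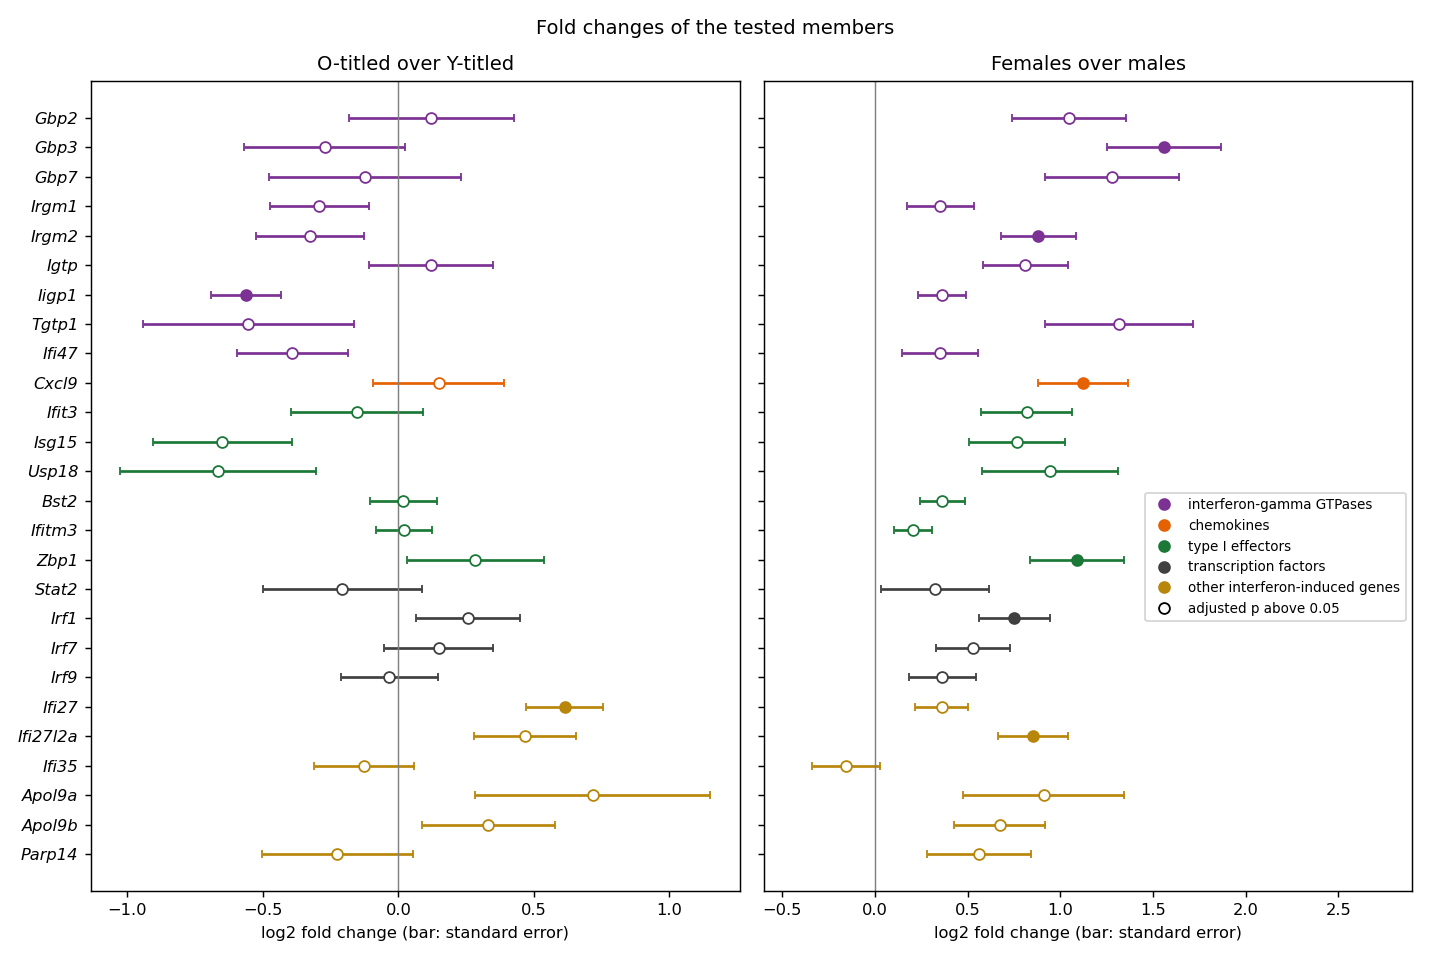
Fitted log2 fold changes of the 26 tested members, O-titled over Y-titled livers on the left and females over males on the right, with bars for the standard error and colours for the roles. Filled points passed an adjusted p of 0.05. On the left the points lie on both sides of 0 with Ifi27 and Iigp1 filled, and on the right 25 of 26 points lie above 0 with 6 filled.

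Within females, Apol9a, Apol9b and Ifi27 were higher in O-titled livers, and the title difference of Apol9a was itself different between the sexes. In males, edgeR called 0 of 26 members and 1.26% of all tested genes (0.636% higher and 0.621% lower), with 3 members at an unadjusted p under 0.05 and 0 called by DESeq2 or limma voom. The unfiltered fit called 1 of 35 in males (Iigp1, log2 fold change -0.58, edgeR adjusted p = 0.0392), against 1.34% of all genes (0.622% as lower). The lowest male fold change was that of Usp18, which was not called (-1.60 ± 0.53 on the log2 scale, edgeR adjusted p = 0.212). In females, 3 of 26 were called, all higher in O-titled livers, and 5.47% of all tested genes were (2.74% higher and 2.74% lower). The unfiltered fit called 5 of 35 in females, 4 higher and Iigp1 lower, against 3.51% of all genes (1.78% higher and 1.73% lower). The difference between the sexes was itself called for 1 of 26 members, Apol9a, and for 0.385% of all tested genes. Without the filter it was called for Apol9a and Apol9b, 2 of 35, against 0.635% of all genes. Hepatocyte markers summed to 89101 and 71754 CPM in O3 and O4 and 118708 and 97800 CPM in Y3 and Y4. Of the 7, edgeR called 2 lower in O-titled females and 0 higher (4 and 2 without the filter). DESeq2 called 1 and limma voom 3, and 5 had an unadjusted p under 0.05, against 16.5% of all tested genes. Kupffer cell markers summed to 1550 and 1166 CPM against 804 and 819.5 CPM, with edgeR calling 0 of 11. The part of cell composition in the female differences was not tested.

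Apol9a had 105 and 95.9 CPM in the O-titled females, against 25.7 and 38.6 CPM in the Y-titled females. In males it had 30.0 and 26.9 CPM in the O-titled and 38.4 and 43.6 CPM in the Y-titled livers. The 2 O-titled females stood far above the other 6 libraries, while among males the O-titled values were the lower ones. The female difference was a log2 fold change of 1.64 ± 0.22 (SE, edgeR adjusted p = 7.58e-05). The male difference was not called (log2 fold change -0.46 ± 0.25, edgeR adjusted p = 0.612). The test of the difference itself gave a log2 value of 2.10 ± 0.34 (SE), females minus males (edgeR adjusted p = 0.00609). The female call held in every alternative run, and the difference between the sexes was lost when reads were thinned to the shallowest library (adjusted p = 0.0567), with the most abundant transcript alone (0.0653) and without O2 and Y2 together (0.114).

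Apol9b, its paralog on the same chromosome, had 146 and 159.6 CPM in the O-titled females, against 68.9 and 98.7 CPM in the Y-titled females. The O-titled males had 65.0 and 67.2 CPM and the Y-titled males 69.2 and 101 CPM. Again the O-titled females were the 2 highest libraries, and among males the O-titled values were the lower ones. The female difference was a log2 fold change of 0.87 ± 0.20 (SE, edgeR adjusted p = 0.0126). Its call was lost without O4 or without Y3 (adjusted p between 0.056 and 0.255) and with DESeq2 (DESeq2 adjusted p = 0.0846). The difference between the sexes was 1.17 ± 0.30 and was not called (edgeR adjusted p = 0.112). The leading transcripts of the pair, 1530 and 1573 bases long, differ at 77 aligned positions, so reads could be split between them, and the handling of such reads is not given in the sources used here. With the reads of both summed, the female fold change was 1.13 on the log2 scale (edgeR adjusted p = 0.000644) and the difference between the sexes was 1.499 (edgeR adjusted p = 0.0173).

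Ifi27 was the third member called in females, with a log2 fold change of 0.69 ± 0.19 (SE, edgeR adjusted p = 0.0391). Its fold change in males was 0.54 ± 0.20 (edgeR adjusted p = 0.313), and the difference between the sexes was 0.15 ± 0.28 (edgeR adjusted p = 0.95). The female call was lost without any 1 of O3, Y3 or Y4 (adjusted p between 0.0987 and 0.34). It was also lost with DESeq2 (DESeq2 adjusted p = 0.201) and with limma voom (limma voom adjusted p = 0.0698). Irf7, the factor that amplifies type I interferon production, had 58.2 and 64.4 CPM in the O-titled and 40.4 and 41.3 CPM in the Y-titled females, and 35.0 and 24.2 CPM in the O-titled and 45.3 and 31.7 CPM in the Y-titled males. Its female values did not overlap while its male values did, and the difference between the sexes was 0.96 ± 0.34 (edgeR adjusted p = 0.384).

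**Figure D3:**
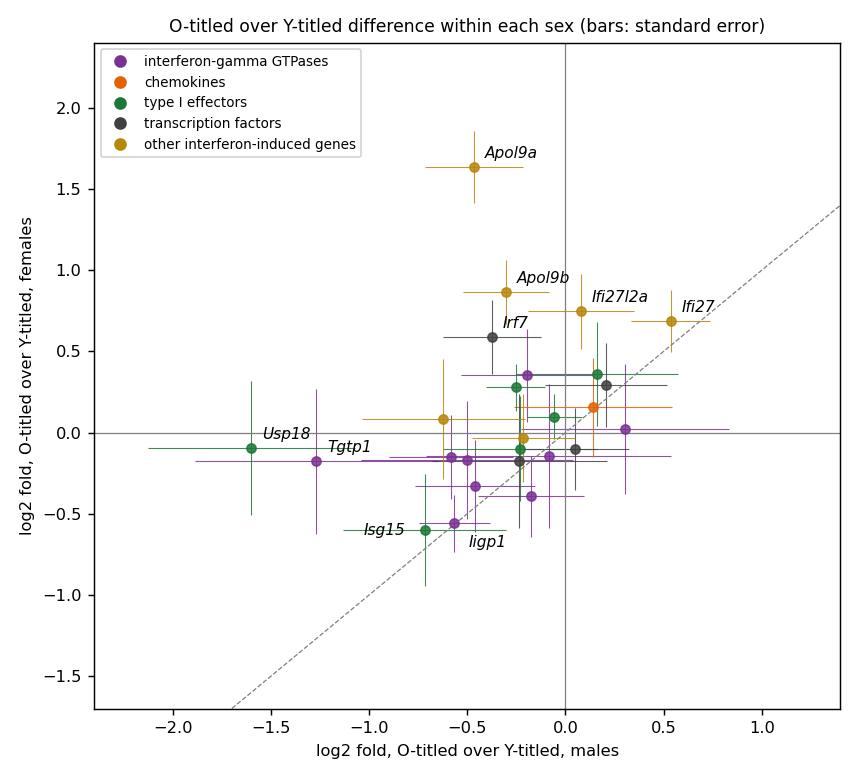
Fitted log2 fold changes of O-titled over Y-titled livers for the 26 tested members, in males on the x axis and in females on the y axis, with bars for the standard error and colours for the roles. The dashed line marks equal changes in both sexes. Apol9a stands apart at -0.46 in males and 1.64 in females, and Iigp1 and Ifi27 lie close to the line.

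Between females and males, the fold changes of the members lay mostly on one side. Gbp3, Irgm2, Cxcl9, Zbp1, Irf1 and Ifi27l2a were higher in females, and no member was called higher in males. EdgeR called 6 of 26 tested members, all higher in females, and called 2.96% of all tested genes, 1.81% as higher and 1.15% as lower in females. The unfiltered fit called 11 of 35, all higher in females, against 2.55% of all genes, 1.49% as higher and 1.06% as lower. The 5 that it added were Gbp7, Igtp, Tgtp1, Isg15 and Apol9b. The fold change was above 0 for 25 of the 26, Ifi35 being the exception, and the median log2 fold change was 0.76 beside -0.00 over all tested genes. Over all 35 members in the unfiltered fit, 32 were above 0 and 3 below, with a median of 0.80 beside 0.02 over all genes. All 4 females lay above all 4 males for 13 of the 26, which held for 3.15% of all tested genes, and the reverse held for 0 of 26 and 3.37%.

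Gbp3, a guanylate-binding protein that acts against pathogens inside cells, had 15.6 and 19.6 CPM in the O-titled females and 12.9 and 26.9 CPM in the Y-titled females, against 5.77 and 4.03 CPM in the O-titled males and 8.18 and 5.94 CPM in the Y-titled males. Every female library lay above every male one. In O2 and Y2, however, Gbp3 had 3 reads each, the number taken as the floor. The means were 18.8 ± 6.11 CPM in females and 5.98 ± 1.70 CPM in males (SD, n = 4 each), with a log2 fold change of 1.56 ± 0.31 (SE, edgeR adjusted p = 0.00692). The call held without any single library and was lost without O2 and Y2 together (adjusted p = 0.0619).

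Irgm2, a regulatory GTPase that guards the cell's own membranes from the effector GTPases, had 25.2 and 31.5 CPM in the O-titled females and 29.4 and 34.1 CPM in the Y-titled females, against 13.8 and 12.1 CPM in the O-titled males and 20.1 and 19.8 CPM in the Y-titled males. The sexes did not overlap, at 30.0 ± 3.78 CPM in females and 16.5 ± 4.11 CPM in males (SD, n = 4 each), with a log2 fold change of 0.88 ± 0.20 (SE, edgeR adjusted p = 0.021). The call was lost without any 1 of O1, O2, O4 or Y4 (adjusted p between 0.0647 and 0.119) and with DESeq2 (DESeq2 adjusted p = 0.0681). Of the 9 GTPases tested, 2 were called and 7 had an unadjusted p under 0.05, and no GTPase had a fold change below 0. Gbp2 had 13.9 and 11.2 CPM in the O-titled females and 12.9 and 11.7 CPM in the Y-titled females, against 7.30 and 4.03 CPM in the O-titled males and 5.66 and 3.96 CPM in the Y-titled males, and its groups were apart without passing the test (log2 fold change 1.05 ± 0.31, edgeR adjusted p = 0.0886). Gbp7 and Igtp also had every female above every male (log2 fold changes 1.28 ± 0.36 and 0.81 ± 0.23, edgeR adjusted p = 0.0733 and 0.073). In O2 and Y2, Gbp2 rested on 3 and 2 reads and Gbp7 on 1 and 2, at or below the floor of 3 reads. Iigp1 stood at 262 ± 63.4 CPM in females and 202 ± 54.5 CPM in males (SD, n = 4 each) and was not called (edgeR adjusted p = 0.192). Tgtp1 had 0 reads in O2, where 3 reads would be 4.03 CPM, and between 6.53 and 26.0 CPM elsewhere, with a fold change of 1.32 ± 0.40 (edgeR adjusted p = 0.124). Summed with Tgtp2, whose transcript is 99.8% identical, it was called (log2 fold change 1.296, edgeR adjusted p = 0.0192). Irgm1 and Ifi47, a regulator and an effector of the same family, had fold changes of 0.35 ± 0.18 and 0.35 ± 0.21 on the log2 scale. The untested Gbp4 and Gbp6 had log2 fold changes of 1.99 and 1.23 in the unfiltered fit (edgeR adjusted p = 0.0511 and 0.0835).

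Cxcl9, the chemokine most tied to interferon-gamma, had 36.5 and 23.1 CPM in the O-titled females and 24.8 and 27.8 CPM in the Y-titled females, against 15.4 and 8.06 CPM in the O-titled males and 10.7 and 15.8 CPM in the Y-titled males. All females exceeded all males, at 28.0 ± 5.94 CPM in females and 12.5 ± 3.76 CPM in males (SD, n = 4 each), with a log2 fold change of 1.12 ± 0.24 (SE, edgeR adjusted p = 0.0144). The call was lost without O3 or without Y1 (adjusted p between 0.0582 and 0.0798). Cxcl10, induced by both kinds of interferon, had 10.4, 5.60, 5.51 and 7.18 CPM in O3, O4, Y3 and Y4, against 4.23, 1.34, 4.41 and 1.98 CPM in O1, O2, Y1 and Y2. These values rest on between 6 and 12 reads in each female and between 1 and 11 in each male library. Although the sexes did not overlap, Cxcl10 was not called in the unfiltered fit (log2 fold change 0.96, edgeR adjusted p = 0.481).

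Zbp1, a sensor of left-handed nucleic acids that can set off cell death, was the type I effector called, with 26.9 and 32.2 CPM in the O-titled females and 23.0 and 23.3 CPM in the Y-titled females, against 16.1 and 5.37 CPM in the O-titled males and 13.2 and 7.92 CPM in the Y-titled males. Females lay above males throughout, at 26.4 ± 4.29 CPM in females and 10.7 ± 4.90 CPM in males (SD, n = 4 each), with a log2 fold change of 1.09 ± 0.25 (SE, edgeR adjusted p = 0.0228). The values of O2 and Y2 rest on 4 reads each, near the floor of 3 reads. Zbp1 lost the call without any 1 of O2, O4, Y3 or Y4 (adjusted p between 0.0503 and 0.102) and with limma voom (limma voom adjusted p = 0.0504). Bst2 and Ifitm3 had every female above every male by small margins, at 325 ± 43.0 CPM and 910.5 ± 63.0 CPM in females and 252 ± 27.5 CPM and 789 ± 22.8 CPM in males (SD, n = 4 each), and neither was called (edgeR adjusted p = 0.159 and 0.437). Ifit3, which binds foreign RNA with other Ifit proteins, stood at 22.2 ± 6.01 CPM in females and 12.5 ± 1.34 CPM in males (edgeR adjusted p = 0.098), Isg15 at 33.6 ± 16.0 CPM and 20.7 ± 8.15 CPM (0.167) and Usp18 at 15.0 ± 5.53 CPM and 7.76 ± 5.07 CPM (0.26), each with n = 4. Of the 6 untested effectors, Ifit1, Oas1a, Oasl2 and Ifi44 had log2 fold changes between 0.77 and 1.52 in the unfiltered fit. Ifit2 and Rsad2 were near 0, at -0.16 and -0.01. EdgeR called 0 of these 6 without the filter, with 3 (Ifit1, Oas1a and Ifi44) at an unadjusted p under 0.05, and the other tools were not run on them. Oas1a makes the oligoadenylates that switch on RNase L, and Rsad2 encodes viperin, an inhibitor of viral RNA synthesis.

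Irf1, a transcription factor induced by interferon-gamma that in turn drives Gbp genes and Cxcl9, had 30.4 and 35.0 CPM in the O-titled females and 27.6 and 26.0 CPM in the Y-titled females, against 18.5 and 20.2 CPM in the O-titled males and 15.1 and 19.8 CPM in the Y-titled males. The sexes did not overlap, at 29.7 ± 3.94 CPM in females and 18.4 ± 2.30 CPM in males (SD, n = 4 each), with a log2 fold change of 0.75 ± 0.19 (SE, edgeR adjusted p = 0.041). Irf1 lost the call without any 1 of O1, O2, O3, O4, Y1, Y3 or Y4 (adjusted p between 0.0567 and 0.188), so that among these runs it held only when Y2 was the library left out. The Irf1 call was also lost with DESeq2 (DESeq2 adjusted p = 0.185). Irf9 had every female above every male, at 31.9 ± 4.09 CPM in females and 24.7 ± 0.748 CPM in males (edgeR adjusted p = 0.437, n = 4 each). Irf7 and Stat2 overlapped between the sexes, with log2 fold changes of 0.53 ± 0.20 and 0.32 ± 0.29 (edgeR adjusted p = 0.244 and 0.766).

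Ifi27l2a had 72.9 and 57.4 CPM in the O-titled females and 36.7 and 40.4 CPM in the Y-titled females, against 30.8 and 26.9 CPM in the O-titled males and 31.5 and 19.8 CPM in the Y-titled males. The lowest female, Y3 at 36.7 CPM, lay above the highest male, Y1 at 31.5 CPM. The means were 51.9 ± 16.7 CPM in females and 27.2 ± 5.35 CPM in males (SD, n = 4 each), with a log2 fold change of 0.85 ± 0.19 (SE, edgeR adjusted p = 0.0167). The call was lost without any 1 of O1, O2 or O3 (adjusted p between 0.0688 and 0.127). Ifi27, Apol9a, Apol9b and Parp14 had log2 fold changes of 0.36 ± 0.14, 0.91 ± 0.43, 0.67 ± 0.24 and 0.56 ± 0.28 and were not called. Ifi35 stood at 32.2 ± 7.38 CPM in females and 35.9 ± 3.33 CPM in males (SD, n = 4 each), a fold change of -0.16 ± 0.19 on the log2 scale.

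The count of 6 members called between the sexes changed with the depth and with single libraries. It ranged from 2 to 8 when 1 library was left out, with 2 without O2 and 3 without any 1 of O1, O3, O4 or Y4. It was 0 of 20 with reads thinned to 545171 per library and 0 of 29 without O2 and Y2 together. Gbp3 did not pass the count filter with thinned reads, so it was not tested there. The median log2 fold change of the members fitted was 0.58 with thinned reads and 0.79 without O2 and Y2. Summed T cell and natural killer cell markers were 23.3 ± 12.8 CPM in females and 11.6 ± 5.29 CPM in males, and summed Kupffer cell markers 1085 ± 352 CPM in females and 882 ± 423 CPM in males (SD, n = 4 each), both overlapping between the sexes. Sinusoidal endothelial markers summed to 234 ± 27.1 CPM in females and 191 ± 41.4 CPM in males (SD, n = 4 each). Neutrophil markers (7 genes, 0 tested) summed to 60.1 ± 31.0 CPM in females and 20.7 ± 16.3 CPM in males (SD, n = 4 each) and overlapped, with O3 the lowest female and O1 the highest male. In the unfiltered fit, however, 0 of the 7 were called and their median log2 fold change was -0.41, females over males. The sum and the median thus point in opposite directions. Red cell markers summed to 2187 ± 450.4 CPM in females and 3097 ± 1087 CPM in males (SD, n = 4 each) and overlapped. Of the 5 red cell markers tested, edgeR, DESeq2 and limma voom each called 1, which by edgeR was Alas2, lower in females (log2 fold change -2.67 ± 0.20, edgeR adjusted p = 1.28e-07), and 3 had an unadjusted p under 0.05. The part of these cells in the sex difference was not tested.

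**Figure D4:**
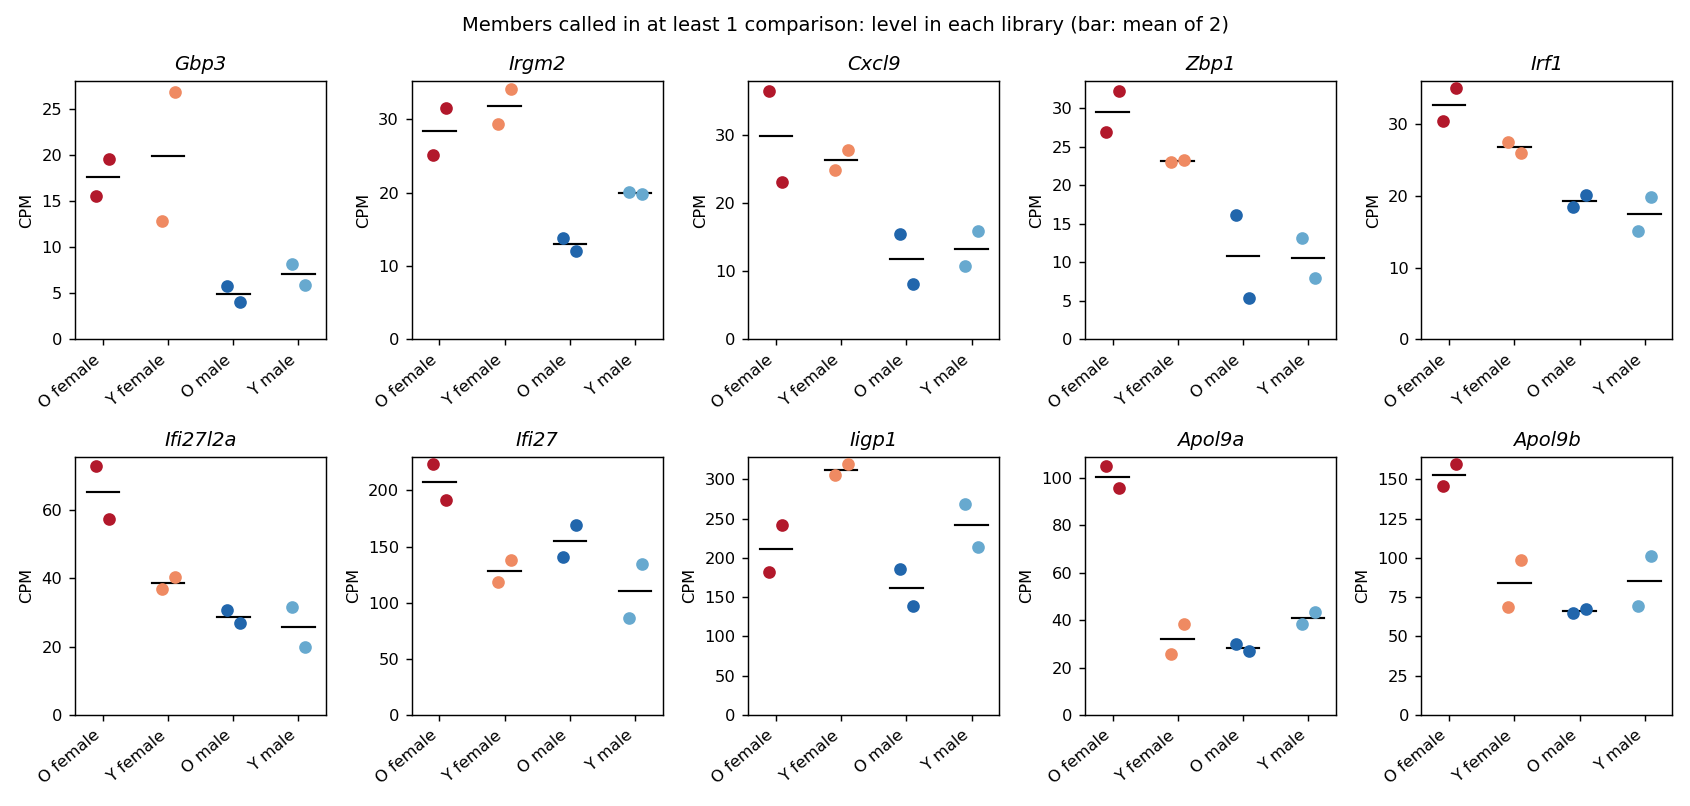
Level of the 10 members called in at least 1 comparison, in CPM on the y axis, with 1 point for each library and a bar for the mean of the 2 libraries of each sex and title. In Gbp3, Irgm2, Cxcl9, Zbp1, Irf1 and Ifi27l2a every red or orange female point lies above every blue male point. In Apol9a and Apol9b the O-titled females alone are high, in Ifi27 all O-titled points lie above all Y-titled ones, and in Iigp1 the O-titled points are the lower ones within each sex.

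To compare the arms of the response, the interferon-gamma type genes (Gbp2, Gbp3, Gbp4, Gbp6, Gbp7, Irgm1, Irgm2 and Cxcl9) and the type I genes (Ifit1, Ifit2, Ifit3, Isg15, Oas1a and Oasl2) were summed in each library, tested or not. Both sums were higher in females in their means, and neither separated the titles. The gamma-type sum was 162 and 141 CPM in the O-titled and 152 and 195 CPM in the Y-titled females, against 85.7 and 60.5 CPM in the O-titled and 100.1 and 79.2 CPM in the Y-titled males. Every female library exceeded every male one, at 163 ± 23.2 CPM in females and 81.4 ± 16.4 CPM in males (SD, n = 4 each). By title the gamma-type sum was 112 ± 47.3 CPM in O-titled livers and 132 ± 52.2 CPM in Y-titled livers (SD, n = 4 each). The type I sum was 71.2 and 86.8 CPM in the O-titled and 69.8 and 125 CPM in the Y-titled females, against 41.9 and 45.7 CPM in the O-titled and 58.5 and 67.3 CPM in the Y-titled males. The lowest female exceeded the highest male here as well, though by only 69.8 against 67.3 CPM, and Y4 stood well above all others. The type I means were 88.1 ± 25.6 CPM in females and 53.4 ± 11.7 CPM in males, and 61.4 ± 21.4 CPM in O-titled livers and 80.1 ± 30.2 CPM in Y-titled livers (SD, n = 4 each).

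The ratio of gamma-type to type I reads was 2.28 and 1.62 in the O-titled females, 2.18 and 1.56 in the Y-titled females, 2.05 and 1.32 in the O-titled males and 1.71 and 1.18 in the Y-titled males. In each of the 4 groups the 2 libraries differed by more than the group means did, so the ratio set no group apart. Its exact 95% binomial interval was 1.75 to 2.99 in O3, the highest ratio, and 0.726 to 1.92 in Y2, the lowest, which rests on 40 gamma-type and 34 type I reads. These intervals cover counting error only and overlap. The mean ratio was 1.91 ± 0.373 in females and 1.56 ± 0.392 in males, and 1.82 ± 0.428 in O-titled livers and 1.66 ± 0.417 in Y-titled livers (SD, n = 4 each). The ratio compares libraries and not the 2 gene sets, since the genes differ in length and number. EdgeR called 3 of the 6 tested gamma-type genes between the sexes (Gbp3, Irgm2 and Cxcl9), with 5 at an unadjusted p under 0.05. DESeq2 called 2 of the 6 and limma voom 3. Of the 2 tested type I genes, Ifit3 and Isg15, edgeR called 0, with both at an unadjusted p under 0.05 and 0 called by DESeq2 or limma voom. The unfiltered fit, which holds all of these genes, called 4 of 8 gamma-type and 1 of 6 type I genes as higher in females, against 1.49% of all genes. With the reads of Ifit3b added, Ifit3 was also called (edgeR adjusted p = 0.011). Whether the sex difference differed between the 2 sets was not tested.

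**Figure D5:**
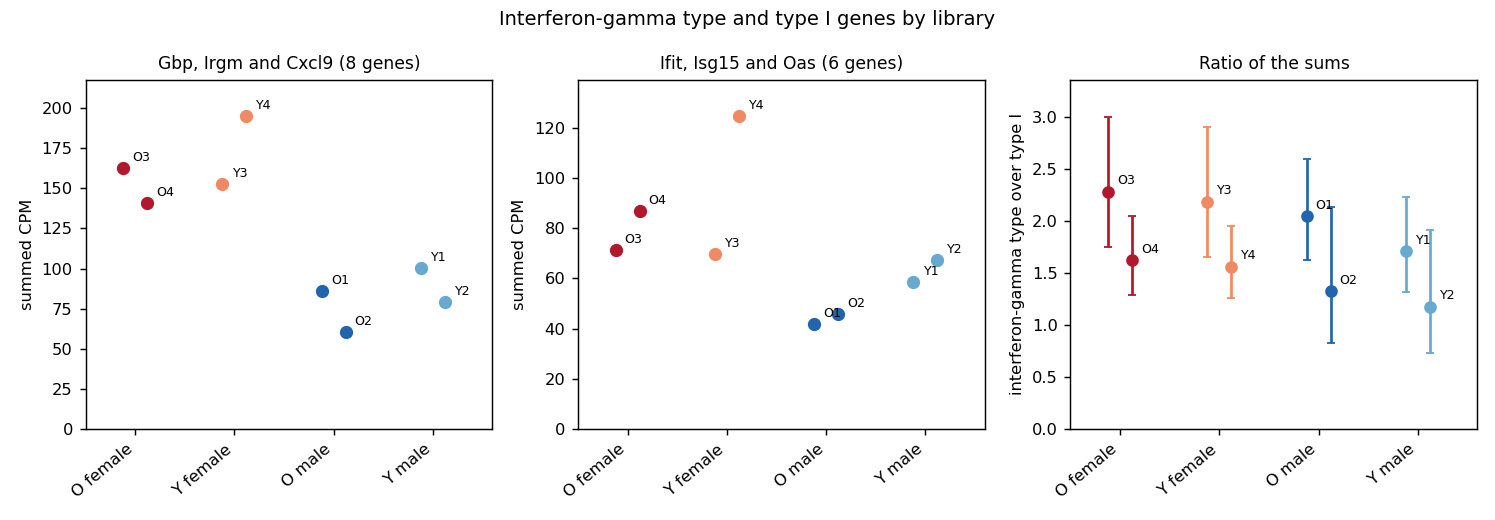
Summed CPM of the 8 interferon-gamma type genes (left) and of the 6 type I genes (middle), and the ratio of the sums with exact 95% binomial intervals (right), for each library by title and sex. Female libraries lie above male ones in the left panel, Y4 stands above the rest in the middle panel, and the intervals of the ratio overlap across the groups.

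Across single members the extremes fell on few libraries. Of the 31 members with at least 50 reads, 13 were highest in Y4, 11 in O3, 6 in O4 and 1 in Y3, and none was highest in a male. O2 held the lowest value of 19, Y2 of 5, O1 of 3, Y1 of 2 and Y3 and Y4 of 1 each. These counts have no share over all genes beside them, so they are not a result about the members as a group. O2 and Y2 were also the 2 shallowest libraries, in which 1 read is worth 1.34 and 1.98 CPM, and the part of depth in this count was not tested.

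Reads followed the annotated transcripts of the members to different degrees. For 19 members 1 transcript was listed and for 16 several, and in 14 of these the leading transcript held under 90% of the reads. In Apol9a, whose 2 transcripts took 58.4% and 41.6% of 510 reads, the leading one took 59.0% of reads in the O-titled and 57.1% in the Y-titled libraries. In Iigp1 the leading transcript took 57.6% in the O-titled and 56.3% in the Y-titled libraries, and in Ifi27 it took 68.1% and 61.9%. Mean read length covered 98.5% of the annotated length of Bst2 and 96.1% of Ifitm3, both under 800 bases long, but 37.7% of Cxcl9 and 38.5% of the leading transcript of Iigp1. The average read of Bst2 and Ifitm3 was thus close to full length, and that of Cxcl9 and Iigp1 was partial.

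Of 14 ligands and inducing cytokines, 12 had 0 reads in every library, among them Ifng (interferon-gamma), Ifnb1 and 4 Ifna genes, where 3 reads would be between 1.15 and 5.94 CPM. Il12b had 1 read in Y3, and Il18, a cytokine that induces interferon-gamma, had 190 reads in all at between 14.7 and 25.2 CPM. The receptor chains Ifnar1, Ifnar2, Ifngr1, Ifngr2 and Il10rb had 10.4 to 16.1, 63.4 to 93.8, 10.1 to 23.0, 13.3 to 25.7 and 8.08 to 15.8 CPM over the 8 libraries, and Ifnlr1, the lambda interferon receptor, had 0 reads in all 8. For these 5 receptor chains edgeR, DESeq2 and limma voom each called 0 in all 5 comparisons, and 0 had an unadjusted p under 0.05.

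Over all pathway lists, 43 of 92 genes were tested. EdgeR called 1 of the 43 between the titles, where 4.01% of all tested genes were called, 2 between the sexes, against 2.96%, and 3 between the titles in females, against 5.47%. It called 0 in males, against 1.26%, and 0 for the difference between the sexes, against 0.385%. At an unadjusted p under 0.05 there were 8, 10 and 6 in the first 3 of these comparisons, against 16.2%, 12.3% and 16.5% of all tested genes, and 4 and 2 in the others, against 9.45% and 8.46%. DESeq2 called 0 in each, and limma voom called 1, 0, 2, 0 and 0. Psmb10, a subunit of the immunoproteasome, had 63.8, 52.4, 105 and 98.0 CPM in O1 to O4, against 50.4, 41.6, 51.4 and 61.0 CPM in Y1 to Y4. Its O-titled values were the higher ones within each sex, and the O-titled females were highest (log2 fold change 0.61 ± 0.15 over all animals and 0.85 ± 0.19 in females, edgeR adjusted p = 0.03 and 0.0124). The first call was lost without any 1 of O1, O3, O4, Y3 or Y4 (adjusted p between 0.0694 and 0.152) and with the replicate number as a block (adjusted p = 0.0661), and the second without Y3 (adjusted p = 0.181).

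Psmb8, another immunoproteasome subunit, was higher in females, at 71.0 ± 22.5 CPM in females and 41.0 ± 7.42 CPM in males (SD, n = 4 each), with a log2 fold change of 0.73 ± 0.19 (SE, edgeR adjusted p = 0.0413). It was also higher in the O-titled females than in the Y-titled ones (log2 fold change 0.75 ± 0.22, edgeR adjusted p = 0.0483). Its sex call was lost without any 1 of O1, O2, O3, O4, Y2 or Y3 (adjusted p between 0.071 and 0.189), and its title call in females without any 1 of O4, Y3 or Y4 (adjusted p between 0.172 and 0.3) and with the replicate block (adjusted p = 0.0645). Irf2, a factor that competes with Irf1 at shared sites, was lower in females, at 29.8 ± 1.73 CPM in females and 46.1 ± 8.67 CPM in males (SD, n = 4 each), with a log2 fold change of -0.65 ± 0.17 (SE, edgeR adjusted p = 0.0443). That call was lost without any 1 of O1, O2, O3, O4, Y1, Y3 or Y4 (adjusted p between 0.0533 and 0.207). Lgals9, a secreted lectin, was lower in O-titled than in Y-titled females (log2 fold change -0.49 ± 0.14, edgeR adjusted p = 0.043). Its call was lost without any 1 of O1, O2, O3, O4, Y1, Y2, Y3 or Y4 (adjusted p between 0.0578 and 0.276) and with the replicate block (adjusted p = 0.0795).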

How the data were processed

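Per the labels' protocols, oligo(dT) selection of poly(A) RNA was followed by ligation of a 5′ adapter and direct RNA sequencing on a MinION. The submitters' processing notes name minimap2 2.24, mm10 and DESeq2. How reads were counted, on which annotation release, and what was done with multi-mapping reads is not given in the sources used here. The deposited tables hold whole-number counts of reads per transcript and, per the file headers, the read lengths. The files name 8 different animals, 1 for each library.

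Gene sums of these counts were tested in R 4.3.3 with edgeR 4.0.16 (filterByExpr with a minimum count of 10, TMM scaling, robust quasi-likelihood test, Benjamini-Hochberg adjustment over all 6759 tested genes at 0.05). The titles and the sexes were compared in 1 fit with the other as covariate. A fit of 4 groups gave the differences within each sex and their difference. CPM are relative to the scaled reads in tested genes. Unless another tool is named, adjusted p values come from edgeR, and DESeq2 1.42.0 and voom in limma 3.58.1 were alternatives. The SE of a log2 fold change is its size over the root of its F statistic. Floors of 3 reads and intervals cover counting error only. The code was tested on simulated counts. Replicates of 1 sex and title differed beyond sampling noise (chi-square over degrees of freedom between 3.26 and 8.35).

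The members, lists and tests were chosen with earlier results of these data known. Values in every library are given for each member called in any comparison, for the member with the highest mean level and those with the highest and lowest title fold change in each role, and for both chemokines. Pathway genes are named where called, and Isg15 was added after its values were seen. Promoters are from the RefSeq table on GRCm38.p6, transcript lengths from GENCODE M21. One symbol of the lists, Iigp1b, was not matched. One gene of the pathway lists is not reported here.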

Additional observations from a re-analysis of the deposited data

Results flagged for a closer look

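The summed type I genes in the Y-titled libraries had a library apart from the other 3. Y4 reached 124.767 CPM, against 69.8 CPM in Y3, 67.3 CPM in Y2 and 58.5 CPM in Y1. Of 40 groups of 4 libraries looked at, 1 had such a library, and chance gives about 1 in 20. These groups covered the called members, further members selected by level or fold change, both chemokines, the summed lists and their ratio. In Y4, Isg15 had 56.5 CPM and Ifit1 19.7 CPM, the highest of all 8 libraries for each. The depth of Y4, at 1148108 mapped reads, was close to that of Y3, at 1112758.

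The difference between O-titled and Y-titled livers in Apol9a was itself different between the sexes, by 2.10021 on the log2 scale (females minus males, edgeR adjusted p = 0.00609). The change was 1.64 in females, with both O-titled animals above both Y-titled ones, and -0.46 in males, with both O-titled animals below both Y-titled ones.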

How the results depend on the processing

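Directions held in every alternative run for the called members. Over 20 alternatives, member results kept their side of the threshold in 2344 cases, were no longer called in 60 and became called in 26, and none was called in the opposite direction. The members called between the titles (2) became 1 with thinned reads, 0 without sex as covariate, and 0 to 2 without 1 library. They became 4 with near-identical partners summed, among them Ifi27l2a, whose partner Ifi27l2b is only 74.4% identical. Those called between the sexes (6) became 11 without a count filter, 2 with the most abundant transcript alone, 0 with thinned reads, 0 without O2 and Y2 together, and 2 to 8 without 1 library. Gbp3 was not tested with the most abundant transcript alone or with thinned reads. In males 0 became 1 without a filter. In females 3 became 5 without a filter, 1 with DESeq2, and 1 to 3 without 1 library. The call for the difference between the sexes (1) became 2 without a filter, 0 with thinned reads, 0 with the most abundant transcript, and 0 without O2 and Y2. Summing partners and leaving out O2 with Y2 were chosen after seeing the data.

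Over all genes, the 271 calls between the titles became 600 without a filter, 138 with thinned reads, 134 without the covariate, and 154 to 294 without 1 library. The 200 between the sexes became 401, 111 and 94 without a filter, with thinned reads and without O2 and Y2, and 125 to 217 without 1 library. The 85 in males became 54 with DESeq2, 55 with limma voom, 211 without a filter, 36 without O2 and Y2, and 31 to 127 without 1 library. The 370 in females became 184 with DESeq2, 183 with thinned reads and 133 to 371 without 1 library. The 26 for the difference between the sexes became 15 with limma voom, 100 without a filter, 16 with thinned reads, 4 without O2 and Y2, and 8 to 45 without 1 library. Thinning and the filter change how many genes are tested (4581 and 15751). For the other changes the cause was not tested.

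Scaling by total reads alone moved the median of all genes on the log2 scale in each of 4 comparisons. It moved to 0.10 between the titles, 0.09 between the sexes and 0.09 in males, each from -0.00, and to 0.10 in females from -0.01. The same scaling gave 240 higher and 100 lower genes between the titles beside 141 and 130, 180 and 56 between the sexes beside 122 and 78, 61 and 33 in males beside 43 and 42, and 253 and 131 in females beside 185 and 185. The median of the members between the titles, -0.08, lay between -0.14 and 0.10 over the alternatives, so it has no settled sign. With the replicate number as a block, 184 genes and 2 members were called between the titles, 64 and 0 in males, 313 and 4 in females (Iigp1 added, edgeR adjusted p = 0.0496), and 33 and 1 for the difference between the sexes. Same-numbered libraries deviated together from their title means (r of 0.41, 0.22, 0.27 and 0.38), as they share a sex. Once sex was removed r was -0.06 and -0.03, and of the 8 libraries only O1 and Y4 had their best match in their own number, so the numbers are not taken as pairing the animals. The count filter removed the members with 87 reads or fewer in all, of which a minimum count of 5 kept 7 and no filter all 9, and intervals cover counting error only.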

Other observations

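For 3 member transcripts the mean read was longer than the annotation. Reads assigned to Zbp1-202 averaged 818 bases, which is 106% of its annotated 770 bases, and held 72.4% of the Zbp1 reads. Reads assigned to Ifi27-202 averaged 1277 bases, which is 154% of its 828 bases, but were only 21 in number. Reads of Ifi27l2a-201 averaged 503 bases, which is 109% of its 463 bases.

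With near-identical partners summed, 4 of 27 fitted members were called between the titles, 2 higher (Ifi27 and Ifi27l2a) and 2 lower (Iigp1 and Gbp6). The share of all genes called in that run is not given here, and it was 4.01% in the main fit. For Ifi27l2a the partner, Ifi27l2b, is only 74.4% identical. Gbp6 summed with Gbp10 had a log2 fold change of -1.08 (edgeR adjusted p = 0.0417), against -1.03 for Gbp6 alone in the unfiltered fit (edgeR adjusted p = 0.165).

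In the sex comparison the calls of Ifit3 also depended on its near-identical copy. Ifit3 alone had an edgeR adjusted p of 0.098, and summed with Ifit3b, whose transcript is 95.3% identical, the log2 fold change of females over males was 1.12 (edgeR adjusted p = 0.011). Ifi27l2a summed with Ifi27l2b was called between the titles, with a log2 fold change of 0.69 (edgeR adjusted p = 0.0359), against 0.208 for Ifi27l2a alone, although the leading transcripts of this pair are only 74.4% identical.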
